A study of Nicotiana tabacum with 78 samples.

Results

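The 39 genes described here are the jasmonate and ethylene genes of an RPKM table of 2075 tobacco (Nicotiana tabacum) genes. A gene was taken as a member where its match to Swiss-Prot or to a tomato gene named jasmonate, a TIFY protein, allene oxide, lipoxygenase, oxophytodienoate, an ethylene receptor, an ethylene response factor or aminocyclopropane, and named neither a P450 nor an inhibitor. By these names 5 members were of jasmonate synthesis, 8 of jasmonate signalling, 2 of ethylene synthesis, 5 were ethylene receptors, 15 were ethylene response factors and 4 matched by name alone. Lipoxygenase and oxophytodienoate matched 0 rows of the table. RPKM, a read count scaled by gene length and by the mapped reads of the library, was deposited as 1 mean per group, the authors' own. It therefore has no error or test here, and a difference cannot be set against the spread between plants.

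The plants were PMT1 (06TN2046), PMT2 (06TN2048) and PMT3 (06TN2052), 3 transgenic lines of the Burley cultivar TN90 that carry an RNAi construct against putrescine N-methyltransferase (PMT), the first committed enzyme of nicotine synthesis, and untransformed TN90. The construct was driven by the constitutive 35S promoter, and each line is a separate transgenic line. All plants grew in pots in a greenhouse until they flowered, when they were topped, that is, the head of the plant was cut off, or left untopped. Full-grown leaves and roots were taken the day after, which gives 16 groups of 4 genotypes, 2 tissues and 2 treatments. The labels put 77 of 78 samples into these groups, with 4 or 5 in each, and 1 PMT2 sample, leaf by its title and root by its tag, was left out.

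Several labels disagree with each other. The leaf and the root of 6 plants (PMT2 4, PMT3 2) carry opposite treatments, and the tissue tags of 35 samples contradict their titles. The authors' library list names 6 topped PMT2 root libraries against 5 samples in the labels, and 3 topped TN90 leaf libraries against 4. A group value cannot be traced to single samples, so what is said of PMT2 and PMT3 rests on the treatment named by the authors' columns. Root libraries (n = 40) held 22078414 to 150334394 reads and leaf libraries (n = 37) held 16299684 to 517291516 reads, with 69.0% to 98.1% of mapped reads in gene models for root libraries and 96.5% to 99.1% for leaf libraries. The 5 PMT genes of the table, the target of the construct, summed to 53.9, 82.0, 86.9 and 842 RPKM in topped roots of PMT1, PMT2, PMT3 and TN90, against 69.4, 36.8, 28.5 and 90.7 RPKM in untopped roots. In roots they were lower in each line than in TN90, by little in untopped PMT1. In leaves they summed to 3.76, 6.19, 3.63 and 0.387 RPKM in topped and 2.28, 8.89, 5.73 and 0.644 RPKM in untopped plants, which is higher in the lines than in TN90. This rests on 1 gene, NITAB068133, with 2.05 to 8.10 RPKM in leaves of the lines against 0.137 to 0.227 RPKM in leaves of TN90, while the other 4 reached at most 0.419 RPKM in any leaf group. The tissue was checked by a list of 16 chlorophyll a-b binding, Rubisco small chain and photosystem genes, which summed to 105 to 225 RPKM in the 8 root groups and 3188 to 4965 RPKM in the 8 leaf groups. Of the 16, 4 were higher in every root group and 10 in every leaf group.

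Jasmonate is made from fatty acids of the plastid membranes, where lipoxygenase, allene oxide synthase (AOS) and allene oxide cyclase (AOC) act in turn, and it is finished in the peroxisome. Its active conjugate with isoleucine joins the receptor COI1 to TIFY proteins of the JAZ family, which hold back transcription factors such as MYC2 until they are degraded, and JAZ genes are themselves among the first to be switched on. Ethylene is made from S-adenosylmethionine by ACC synthase and ACC oxidase, and its receptors repress the pathway until ethylene binds. Ethylene response factors (ERFs) are a large family of transcription factors, of which many answer to jasmonate or wounding. In tobacco, jasmonate is known to switch on nicotine synthesis in the root, and ethylene to dampen it. Swiss-Prot names are those of the closest match, often in another species.

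The first question was what topping did to these genes in roots, in the lines and in TN90. A gene is said below to have risen or fallen where the fold of RPKM + 0.1 was at least 2 and at least 1 of the paired groups reached 1 RPKM. Of the 13 genes of jasmonate synthesis and signalling, 9 rose in PMT1 roots, where 21.2% of the table rose. In PMT2 roots 9 of the 13 rose (12.2% of the table), in PMT3 roots 10 (26.5%) and in TN90 roots 10 (45.6%). These shares count folds of group means without a test. By the authors' own test, topping changed fewer genes in TN90 roots than in roots of each line. While 3.81% (PMT1), 2.89% (PMT2), 5.83% (PMT3) and 6.07% (TN90) of the table fell, 0 of the 13 did in any genotype. Their summed level was 159, 155, 107 and 133 RPKM in topped roots of PMT1, PMT2, PMT3 and TN90, against 63.4, 62.1, 38.6 and 57.3 RPKM in untopped roots. The median log2 folds of the 13 were 1.08 (PMT1), 1.19 (PMT2), 1.39 (PMT3) and 1.15 (TN90), beside 0.43, 0.13, 0.39 and 0.91 for the table.

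The table leans towards topped roots, which bears on all of these counts. Its genes are those the authors called in at least 1 root comparison, so their moving is part of how they were chosen, and a jasmonate gene that passed none of their root comparisons is not among them. The median of the topped column lay above that of the untopped column on the log2 scale, by 0.44 (PMT1), 0.18 (PMT2), 0.43 (PMT3) and 0.66 (TN90). Relative to these medians 2 of the 13 jasmonate genes rose in PMT1 (10.7% of the table) and 7 in PMT2 (8.87%). In PMT3 6 rose (15.3%) and in TN90 0 (17.8%). While 12.7% (PMT1), 4.96% (PMT2), 12.7% (PMT3) and 20.4% (TN90) of the table fell on this scale, 0 of the 13 did. The median of the 13 exceeded that of the table by less in TN90 than in any of the lines. Roots are mixtures of cells, and fewer cells of a type and less RNA per cell cannot be told apart in these values.

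In jasmonate synthesis the largest difference in level was that of an AOC gene, NITAB030383. AOC sets the stereochemistry of the jasmonate precursor. NITAB030383 stood at 31.3, 40.6, 24.7 and 25.4 RPKM in topped roots, against 7.36, 7.87, 4.73 and 9.10 RPKM in untopped roots of PMT1, PMT2, PMT3 and TN90. The lowest topped root group lay above the highest untopped one, and the fold ran from 2.77-fold to 5.13-fold. The other AOC gene, NITAB059239, stood at 15.9, 18.2, 9.51 and 14.9 RPKM in topped roots, against 8.07, 9.97, 5.03 and 5.79 RPKM in untopped roots, in the same order of genotypes, which is kept below. It was 2-fold or more higher only in TN90 (2.54-fold) and came to 1.96-fold, 1.82-fold and 1.87-fold in PMT1, PMT2 and PMT3. Both match the same tomato gene. Tobacco carries 2 parental genomes, and reads with up to 10 mapping positions were kept. Reads may thus have been split where 2 genes are alike in sequence, which was not tested for this pair. The ratio of NITAB030383 to NITAB059239 was 1.71 to 2.59 in topped roots and 0.790 to 1.57 in untopped roots, without overlap.

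The AOS genes were lower in level than the AOC genes. In jasmonate synthesis AOS acts in the plastid and makes the unstable allene oxide that AOC takes up. Tomato AOS 3 is known instead for acting on fatty acid hydroperoxides that do not lead to jasmonate, so its match NITAB098766 counts as a synthesis gene here by its name alone. NITAB023404 (AOS 2) stood at 2.02, 2.07, 1.10 and 1.44 RPKM in topped roots, against 0.301, 0.259, 0.182 and 0.432 RPKM in untopped roots. It had the steepest mean fold of the 5 synthesis genes, 2.89-fold to 6.03-fold, but from untopped levels below 1 RPKM, where the added 0.1 RPKM lowers a fold. NITAB031877, also matched to AOS 2, stood at 3.20, 4.60, 2.00 and 3.16 RPKM in topped roots, against 1.63, 2.28, 0.952 and 1.32 RPKM in untopped roots. Only TN90 reached 2-fold for this gene (2.30-fold), and its topped PMT3 value lay below the untopped value of PMT2. NITAB098766 (AOS 3) stood at 4.69, 5.58, 2.04 and 3.85 RPKM in topped roots, against 2.31, 6.16, 1.51 and 1.68 RPKM in untopped roots. For 12 of the 13 jasmonate genes the ratio lay above 1 in each genotype, as it did for 39.6% of the table. The exception was AOS 3 in PMT2, whose topped roots held less of this gene than its untopped roots. AOS 3 rose only in TN90 (2.23-fold).

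**Figure D1:**
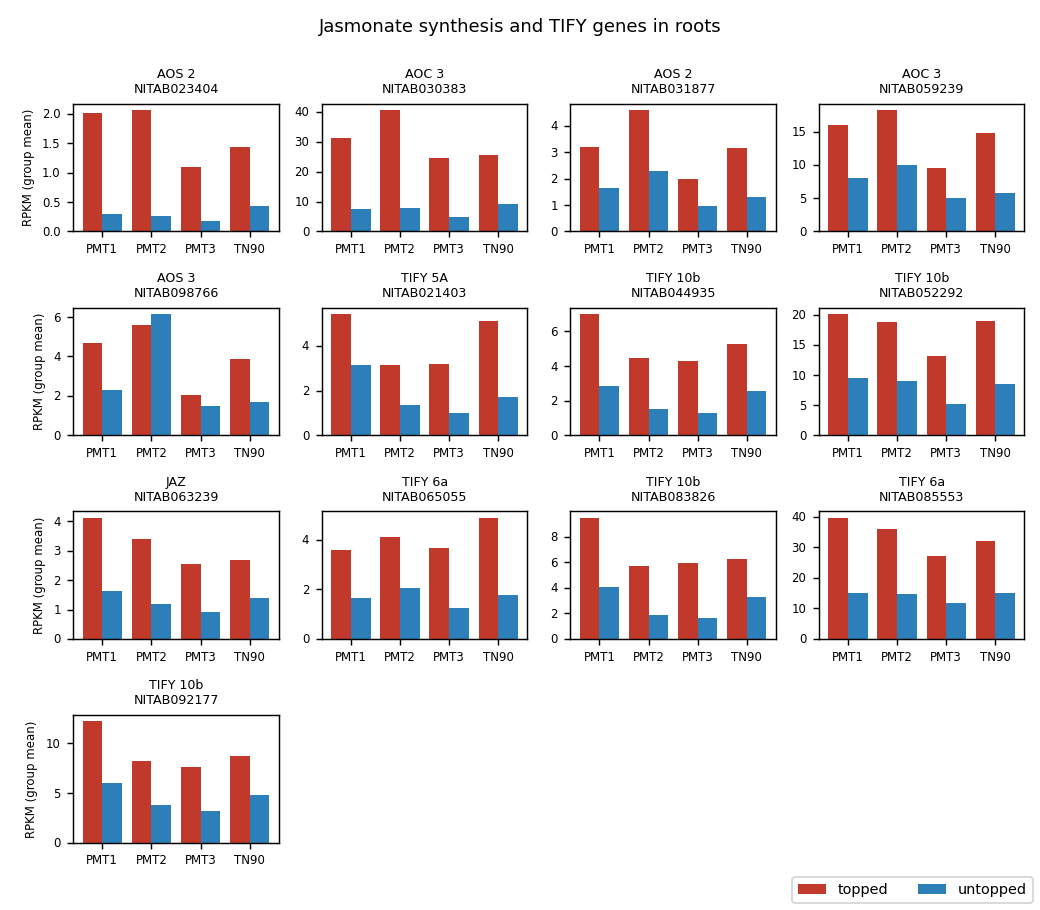
RPKM (authors' group means, linear axes from 0) of the 5 jasmonate synthesis and 8 TIFY genes in topped (red) and untopped (blue) roots of PMT1, PMT2, PMT3 and TN90. The topped bar is the higher of its pair in all but one pair, AOS 3 (NITAB098766) in PMT2, where topped roots stood at 5.58 RPKM against 6.16 RPKM in untopped roots.

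All 8 TIFY genes were higher in every topped root group than in every untopped one, which held for 11.4% of the table (236 genes). TIFY proteins with a JAZ motif are the repressors of jasmonate signalling. NITAB085553 (TIFY 6a) was the most abundant of the 13 jasmonate genes in untopped roots, at 39.8, 36.0, 27.1 and 32.1 RPKM in topped roots, against 14.9, 14.9, 11.8 and 15.0 RPKM in untopped roots, and rose 2.13-fold to 2.66-fold. Next among the TIFY genes came NITAB052292 (TIFY 10b), at 20.2, 18.9, 13.1 and 19.1 RPKM in topped roots, against 9.53, 8.94, 5.14 and 8.53 RPKM in untopped roots, which also rose in every genotype, 2.10-fold to 2.53-fold. NITAB092177, another TIFY 10b gene with the same tomato match, stood at 12.2, 8.18, 7.61 and 8.69 RPKM in topped roots, against 5.98, 3.81, 3.15 and 4.79 RPKM in untopped roots. It reached 2-fold in the 3 PMT lines and came to 1.80-fold in TN90.

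Another pair of TIFY 10b genes shares a tomato match named jasmonate ZIM-domain protein 1. NITAB044935 stood at 7.02, 4.45, 4.27 and 5.25 RPKM in topped roots, against 2.86, 1.49, 1.26 and 2.54 RPKM in untopped roots. It rose in all 4 genotypes, 2.03-fold to 3.21-fold. Its partner NITAB083826 stood at 9.49, 5.68, 5.96 and 6.24 RPKM in topped roots, against 4.03, 1.91, 1.63 and 3.25 RPKM in untopped roots, rose in the 3 lines and came to 1.89-fold in TN90. The ratio of NITAB044935 to NITAB083826 stayed between 0.710 and 0.842 over the 8 root groups, a nearly constant proportion. In both genes PMT3 had the largest fold and TN90 the smallest.

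The remaining TIFY genes were lower. NITAB065055, another TIFY 6a match, stood at 3.60, 4.11, 3.67 and 4.89 RPKM in topped roots, against 1.65, 2.04, 1.26 and 1.76 RPKM in untopped roots. NITAB063239, named a jasmonate ZIM-domain protein only by its tomato match, stood at 4.13, 3.40, 2.55 and 2.70 RPKM in topped roots, against 1.61, 1.18, 0.914 and 1.40 RPKM in untopped roots. The first of these rose in PMT1, PMT3 and TN90, and the other in the 3 lines. NITAB021403 (TIFY 5A) stood at 5.44, 3.16, 3.20 and 5.11 RPKM in topped roots, against 3.15, 1.33, 1.01 and 1.71 RPKM in untopped roots. For TIFY 5A the untopped PMT1 value lay just below the topped values of PMT2 and PMT3, and its fold in PMT1 (1.70) was the smallest of the 32 TIFY folds in roots.

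Over the 13 genes, PMT3 had the lowest of the 4 untopped root values each time, 13 of 13, where PMT3 was lowest for 41.9% of the table. This count was made after the values had been seen. Relative to the column medians it shrank to 4 of 13, where PMT3 was lowest for 580 of the 2075 genes. In topped roots PMT3 was lowest for 10 of the 13 (54.7% of the table), and PMT1 was highest for 7 of the 8 TIFY genes (25.7% of the table) while PMT2 was highest for all 5 synthesis genes (33.8%). Relative to the column medians the PMT1 and PMT2 counts stayed at 7 and 5, beside 440 and 629 of the 2075 genes. PMT3 was then lowest for 4 of 13, beside 734 of the 2075 genes. None of these 13 genes reached 2-fold between a line and TN90 in topped roots.

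Of the 2 ACC oxidase genes, which make ethylene in the last step of its synthesis, NITAB058665 rose in TN90 roots. It stood at 4.26, 7.31, 2.20 and 6.90 RPKM in topped roots, against 3.42, 5.02, 1.81 and 1.94 RPKM in untopped roots. The TN90 fold was 3.43, and PMT1, PMT2 and PMT3 came to 1.24-fold, 1.45-fold and 1.21-fold. Topped roots of TN90 were thus close to those of PMT2, and untopped roots of TN90 close to those of PMT3. The other gene, NITAB097562, stood at 2.32, 1.81, 2.80 and 1.73 RPKM in topped roots, against 3.59, 1.70, 2.87 and 1.93 RPKM in untopped roots, and the topped and untopped values overlapped. ACC synthase was not among the members.

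The ethylene receptors were lower, not higher, in topped TN90 roots. All 5 had a ratio below 1 there, and 3 of 5 fell (6.07% of the table fell in TN90 roots). In PMT1 roots 2 of 5 fell (3.81% of the table), and 0 fell in PMT2 (2.89%) and PMT3 (5.83%). Relative to the column medians 4 fell in TN90 (20.4% of the table), 2 in PMT1 (12.7%), 2 in PMT3 (12.7%) and 0 in PMT2 (4.96%). Their summed level was 9.90, 11.5, 13.1 and 11.3 RPKM in topped roots, against 12.4, 12.2, 15.8 and 20.2 RPKM in untopped roots.

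**Figure D2:**
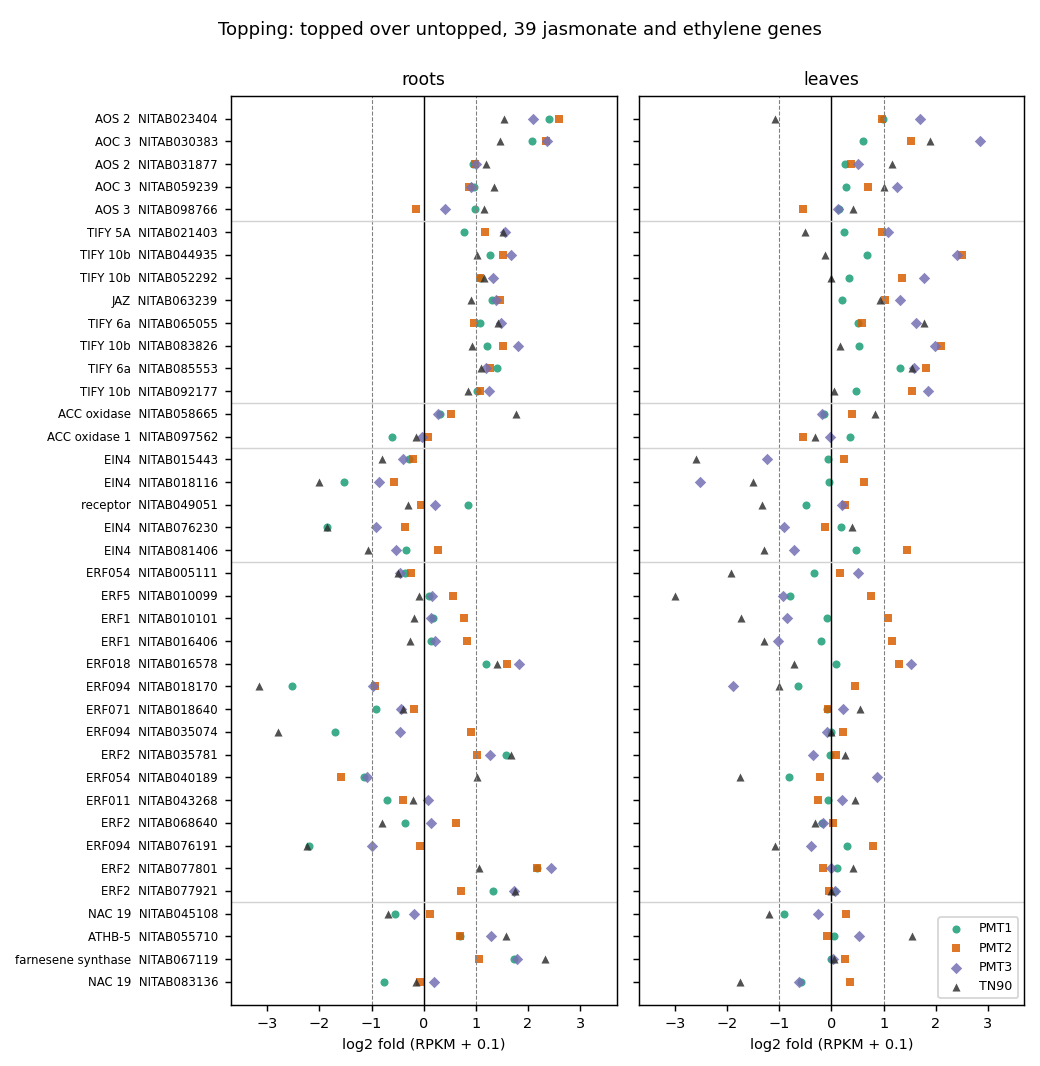
Log2 fold of RPKM + 0.1, topped over untopped, for each of the 39 genes in roots (left) and leaves (right), with 1 symbol per genotype, dashed lines at 2-fold and grey lines between the groups of genes. In roots the TIFY genes lie to the right of 0 in every genotype and the EIN4 genes mostly to the left, and in leaves the genotypes lie further apart. Members under 1 RPKM in both groups are drawn but were not counted as changed.

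Of the receptor genes, 4 match EIN4, a receptor of the second subfamily in Arabidopsis. NITAB018116 stood at 0.634, 0.510, 0.867 and 0.550 RPKM in topped roots, against 2.02, 0.804, 1.65 and 2.51 RPKM in untopped roots, that is 1.48-fold to 4.02-fold lower after topping. NITAB076230, with the same tomato match, stood at 0.398, 0.412, 0.754 and 0.516 RPKM in topped roots, against 1.71, 0.560, 1.51 and 2.12 RPKM in untopped roots. Both fell in PMT1 and TN90, where the untopped levels were highest, and topped roots of all genotypes lay below 1 RPKM. NITAB081406, a further gene with that tomato match, stood at 2.36, 2.08, 2.13 and 1.60 RPKM in topped roots, against 2.99, 1.70, 3.13 and 3.45 RPKM in untopped roots and fell only in TN90 (2.08-fold lower). NITAB015443, of another match, stood at 3.21, 2.15, 3.27 and 2.72 RPKM in topped roots, against 3.94, 2.50, 4.34 and 4.78 RPKM in untopped roots, a ratio below 1 in each genotype but short of 2-fold.

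The fifth receptor, NITAB049051, is matched to the tomato gene Never ripe-2. It stood at 3.30, 6.39, 6.04 and 5.96 RPKM in topped roots, against 1.79, 6.64, 5.20 and 7.34 RPKM in untopped roots. PMT1 stands apart here, with the lowest value of the 4 genotypes in both treatments, and its untopped roots were 3.94-fold below those of TN90 while its topped roots were 1.78-fold below. In untopped roots TN90 held the highest level of all 5 receptors, where TN90 was highest for 23.4% of the table. This was noticed after the values had been seen. Relative to the column medians it held for 3 of 5, beside 531 of the 2075 genes.

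The 15 ERF genes split. TN90 roots had 4 rises and 3 falls (45.6% and 6.07% of the table), PMT1 roots 4 and 4 (21.2% and 3.81%), PMT2 roots 3 and 1 (12.2% and 2.89%), and PMT3 roots 4 and 1 (26.5% and 5.83%). A count of 4 among 15 is 26.7%, near the share of the table that rose in PMT3 and below that in TN90. Over the 4 genotypes, 3 ERFs and 5 of the 13 jasmonate genes rose each time, as did 7.95% of the table. The 3 ERFs were NITAB016578, NITAB077801 and NITAB035781. Another 4 had a ratio below 1 in each genotype, as did 12.9% of the table. The other 8 pointed in different directions in different genotypes, apart from NITAB077921, which lay above 1 in all of them.

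NITAB016578 is matched to ERF018, known in Arabidopsis as a jasmonate-responsive activator of jasmonate synthesis genes. It stood at 13.0, 5.96, 6.06 and 9.17 RPKM in topped roots, against 5.58, 1.89, 1.63 and 3.38 RPKM in untopped roots and rose 2.30-fold to 3.57-fold. The topped and untopped root groups did not overlap. The 3 genes NITAB077801, NITAB077921 and NITAB035781 are matched to ethylene-responsive transcription factor 2 and were found almost only in roots. A further gene with this match, NITAB068640, did not change by 2-fold in roots and is given below. NITAB077801 stood at 5.23, 3.13, 2.82 and 2.65 RPKM in topped roots, against 1.08, 0.620, 0.439 and 1.22 RPKM in untopped roots, and rose 2.09-fold to 5.42-fold. NITAB077921 stood at 6.46, 8.52, 5.09 and 6.68 RPKM in topped roots, against 2.50, 5.13, 1.46 and 1.92 RPKM in untopped roots. It rose in PMT1, PMT3 and TN90 and came to 1.65-fold in PMT2, whose untopped roots already held the most. NITAB035781, which shares its tomato match, stood at 2.49, 3.26, 1.14 and 1.84 RPKM in topped roots, against 0.765, 1.56, 0.414 and 0.511 RPKM in untopped roots.

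The steepest fall of any member was that of NITAB018170, matched to ERF094. In Arabidopsis ERF094 joins jasmonate and ethylene signals in defence. NITAB018170 stood at 0.797, 0.643, 1.95 and 0.758 RPKM in topped roots, against 5.04, 1.31, 3.91 and 7.57 RPKM in untopped roots. It fell in TN90, 8.94-fold, and in PMT1, 5.73-fold. In PMT2 it came to 1.90-fold lower and in PMT3 to 1.96-fold lower, both just short of 2-fold on this scale. NITAB076191, with the same tomato match, was at 0.602, 0.688, 1.24 and 0.802 RPKM in topped roots, against 3.14, 0.728, 2.55 and 4.17 RPKM in untopped roots, and NITAB035074, a further ERF094 match, stood at 0.350, 0.442, 0.705 and 0.164 RPKM in topped roots, against 1.36, 0.187, 1.00 and 1.74 RPKM in untopped roots. All 3 fell in PMT1 and TN90 and in neither PMT2 nor PMT3, which in PMT2 went with untopped levels that were the lowest of the 4 genotypes. In PMT3 NITAB076191, like NITAB018170, came just short of 2-fold lower, at 1.24 RPKM in topped against 2.55 RPKM in untopped roots.

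**Figure D3:**
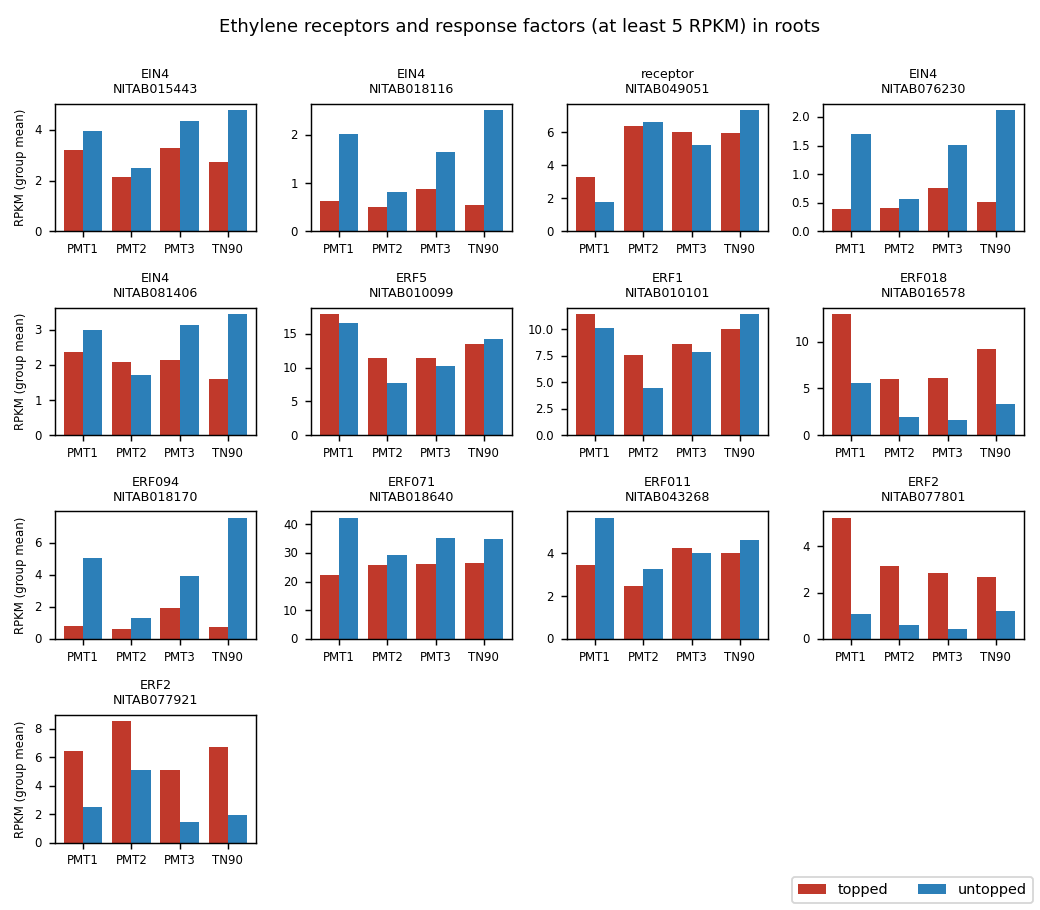
RPKM (authors' group means, linear axes from 0) of the 5 ethylene receptor genes and the 8 ERF genes that reached 5 RPKM in a root group, in topped (red) and untopped (blue) roots of PMT1, PMT2, PMT3 and TN90. Untopped bars are the taller for EIN4 genes and ERF094 in TN90 and PMT1 and are short in PMT2, while ERF018 and the pair of ERF2 genes have taller topped bars in every genotype.

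The most abundant ERF, NITAB018640, is matched to ERF071, known in Arabidopsis for its response to low oxygen. It stood at 22.4, 25.8, 26.1 and 26.3 RPKM in topped roots, against 42.4, 29.3, 35.1 and 34.8 RPKM in untopped roots. Each topped value lay below each untopped one, as for 3.47% of the table, although no fold reached 2. NITAB010099 (ERF 5) stood at 18.0, 11.5, 11.4 and 13.5 RPKM in topped roots, against 16.7, 7.78, 10.3 and 14.3 RPKM in untopped roots, and NITAB010101 (ERF 1, matched to the tomato defence factor Pti4) stood at 11.4, 7.56, 8.62 and 9.98 RPKM in topped roots, against 10.1, 4.40, 7.84 and 11.4 RPKM in untopped roots. For both genes topped roots overlapped with untopped ones, and no fold reached 2. NITAB043268 (ERF011) stood at 3.44, 2.45, 4.26 and 4.01 RPKM in topped roots, against 5.65, 3.28, 3.99 and 4.61 RPKM in untopped roots, again with overlap. The remaining 4 ERFs were below 5 RPKM in every root group. Among them NITAB040189 (ERF054) fell in the 3 lines and stood at 0.543, 0.339, 0.833 and 0.547 RPKM in topped roots, against 1.31, 1.22, 1.89 and 0.220 RPKM in untopped roots, with TN90 alone pointing the other way below 1 RPKM. NITAB005111, which shares its tomato match, held 1.54 to 2.20 RPKM in topped roots and 1.83 to 3.06 RPKM in untopped roots. NITAB016406, which shares the tomato match of NITAB010101, held 2.74 to 4.07 RPKM in topped roots and 1.61 to 3.69 RPKM in untopped roots, and NITAB068640 (ERF 2) held 0.787 to 1.20 RPKM in topped roots and 0.476 to 2.07 RPKM in untopped roots. All 3 overlapped between treatments, and with topping none changed by 2-fold in roots.

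The last 4 members matched by name alone. NITAB055710 is matched to the homeobox protein ATHB-5 and to a tomato protein called jasmonic acid 1, and stood at 2.63, 4.51, 1.83 and 3.13 RPKM in topped roots, against 1.58, 2.74, 0.692 and 0.976 RPKM in untopped roots. It rose in PMT3 and TN90. NITAB067119 has a farnesene synthase as its Swiss-Prot match and an AP2-like factor as its tomato match, so its family is uncertain. It rose in all 4 genotypes, 2.07-fold to 5.02-fold, and stood at 2.76, 3.43, 1.96 and 1.69 RPKM in topped roots, against 0.756, 1.60, 0.500 and 0.256 RPKM in untopped roots. NITAB045108, a match to the transcription factor NAC19, held 3.84 to 4.95 RPKM in topped roots and 3.76 to 6.44 RPKM in untopped roots, and NITAB083136, another such match, held 1.98 to 3.73 RPKM in topped roots and 2.60 to 4.16 RPKM in untopped roots. Both overlapped between topped and untopped roots.

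Over all 39 members, PMT1 roots had 14 rises and 6 falls (21.2% and 3.81% of the table), PMT2 roots 13 and 1 (12.2% and 2.89%), PMT3 roots 16 and 1 (26.5% and 5.83%), and TN90 roots 17 and 6 (45.6% and 6.07%). As shares of the 39 the rises were 35.9%, 33.3%, 41.0% and 43.6%, which in TN90 is close to the share of the table. Relative to the column medians PMT1 had 5 and 10 (10.7% and 12.7% of the table), PMT2 had 9 and 2 (8.87% and 4.96%), PMT3 had 10 and 5 (15.3% and 12.7%), and TN90 had 4 and 11 (17.8% and 20.4%), so the split between rises and falls turned round in PMT1 and TN90. Across the 4 genotypes 9 members rose each time (7.95% of the table), and relative to the medians 0 did (3.81%).

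Leaves gave the second comparison, and here the table is at less of a tilt, with column medians moved on topping by log2 values of 0.05 (PMT1), 0.18 (PMT2), -0.03 (PMT3) and 0.06 (TN90). Of the 39 members 20 reached 1 RPKM in a leaf group, a share near that of the table (51.1%). Among the 13 jasmonate genes 11 did (84.6%), so a larger share of them than of the table could be called in leaves. Of the 13 jasmonate genes 1 rose in PMT1 leaves (3.37% of the table) and 5 in PMT2 (2.65%). In PMT3 leaves 10 rose (4.29%) and in TN90 leaves 5 (7.61%). While 4.05% (PMT1), 1.64% (PMT2), 1.69% (PMT3) and 12.4% (TN90) of the table fell, 0 of the 13 did. Their summed level was 45.7, 56.9, 71.2 and 60.5 RPKM in topped leaves of PMT1, PMT2, PMT3 and TN90, against 25.8, 21.4, 21.1 and 25.9 RPKM in untopped leaves. In 8 of the 13 the 4 topped leaf groups lay above the 4 untopped ones, as for 4.19% of the table. This count has no minimum level. Among them NITAB083826 was only narrowly separated, at 0.187 RPKM in its lowest topped and 0.180 RPKM in its highest untopped group.

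TIFY 6a (NITAB085553) was the member that rose in leaves of all 4 genotypes, as 12 genes of the table did (0.578%). It stood at 23.7, 25.6, 28.6 and 30.8 RPKM in topped leaves, against 9.51, 7.25, 9.51 and 10.5 RPKM in untopped leaves, and the leaf folds ran from 2.48-fold to 3.50-fold. In topped PMT1 it stood at 39.8 RPKM in roots and 23.7 RPKM in leaves, and in topped PMT2 at 36.0 RPKM in roots and 25.6 RPKM in leaves. Roots and leaves lay closer in topped TN90, with 32.1 RPKM in roots and 30.8 RPKM in leaves, and in topped PMT3, with 27.1 RPKM in roots and 28.6 RPKM in leaves. The second TIFY 6a gene, NITAB065055, stood at 1.18, 1.59, 1.70 and 2.19 RPKM in topped leaves, against 0.801, 1.02, 0.485 and 0.567 RPKM in untopped leaves. It rose in PMT3 and TN90. NITAB063239 stood at 1.70, 2.69, 2.93 and 2.27 RPKM in topped leaves, against 1.46, 1.27, 1.11 and 1.14 RPKM in untopped leaves. This gene rose in PMT2 and PMT3.

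The AOC gene NITAB030383 stood at 4.72, 7.36, 11.5 and 9.03 RPKM in topped leaves, against 3.09, 2.50, 1.50 and 2.37 RPKM in untopped leaves. It rose 7.21-fold in PMT3, 3.69-fold in TN90 and 2.87-fold in PMT2, and came to 1.51-fold in PMT1. NITAB059239 stood at 5.39, 7.43, 6.90 and 7.84 RPKM in topped leaves, against 4.42, 4.55, 2.84 and 3.85 RPKM in untopped leaves and rose in PMT3 and TN90. In leaves the topped and untopped groups of both AOC genes did not overlap. The AOS genes were scarce there: NITAB031877 reached 1.93 RPKM and NITAB023404 1.01 RPKM at most, and NITAB098766 0.119 RPKM. Of these, NITAB031877 rose in TN90 leaves (2.23-fold) and NITAB023404 in PMT3 leaves (3.25-fold). In TN90 leaves NITAB023404 pointed the other way, at 0.0841 RPKM in topped against 0.291 RPKM in untopped leaves.

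**Figure D4:**
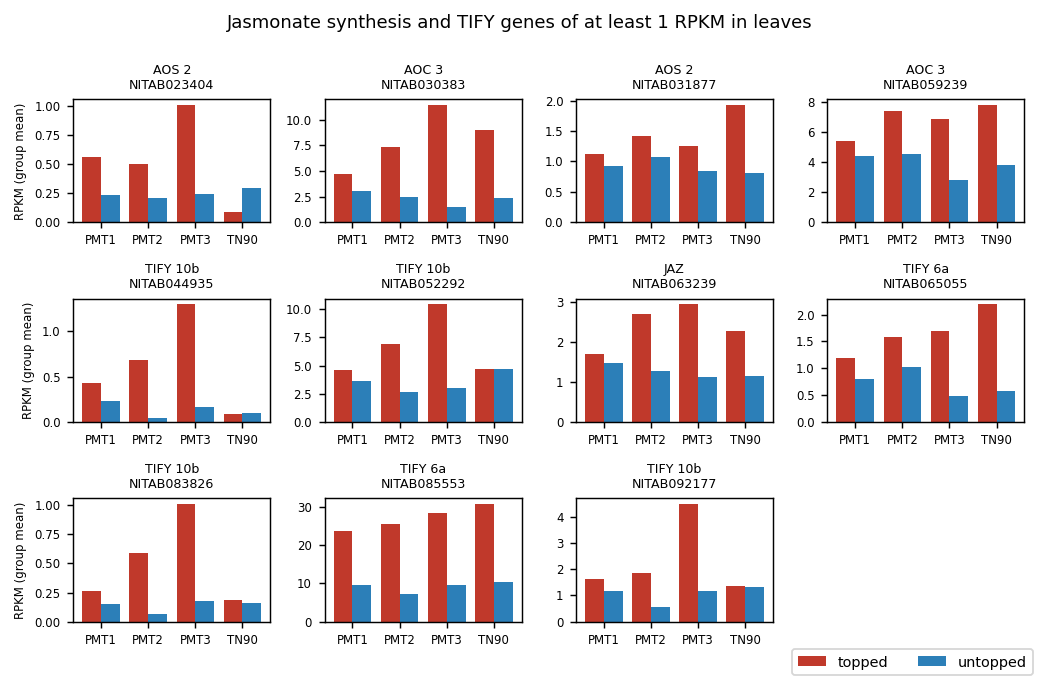
RPKM (authors' group means, linear axes from 0) of the 11 jasmonate synthesis and TIFY genes that reached 1 RPKM in a leaf group, in topped (red) and untopped (blue) leaves of PMT1, PMT2, PMT3 and TN90. TIFY 6a (NITAB085553) has a taller topped bar in each genotype, while the TIFY 10b genes are tallest in topped PMT3 leaves and level or nearly level in TN90.

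The TIFY 10b genes set the genotypes apart in leaves. NITAB052292 stood at 4.64, 6.88, 10.4 and 4.71 RPKM in topped leaves, against 3.63, 2.64, 2.99 and 4.74 RPKM in untopped leaves. It rose 3.41-fold in PMT3 and 2.55-fold in PMT2, and its fold was 0.994 in TN90. NITAB092177 stood at 1.64, 1.87, 4.48 and 1.37 RPKM in topped leaves, against 1.16, 0.572, 1.17 and 1.32 RPKM in untopped leaves. It also rose in PMT2 and PMT3 and not in PMT1 and TN90. NITAB044935 and NITAB083826 exceeded 1 RPKM only in topped PMT3 leaves, at 1.30 and 1.01 RPKM. For the TN90 topped column the authors' library list names 3 libraries, against 4 samples in the labels. Whether the difference between genotypes exceeds the spread between plants was not tested.

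The members that fell in leaves were ethylene receptors, ERFs and the NAC19 matches. Of the 39 members 6 fell in TN90 leaves (12.4% of the table), 2 in PMT3 (1.69%) and 0 in PMT1 (4.05%) and PMT2 (1.64%). NITAB010099 (ERF 5) stood at 1.86, 2.75, 3.35 and 0.506 RPKM in topped leaves, against 3.28, 1.57, 6.49 and 4.78 RPKM in untopped leaves, and its TN90 leaves fell 8.04-fold. NITAB010101 (ERF 1) stood at 1.17, 0.979, 1.17 and 0.367 RPKM in topped leaves, against 1.25, 0.411, 2.20 and 1.46 RPKM in untopped leaves. It fell in TN90. The EIN4 gene NITAB015443 stood at 0.646, 0.786, 0.808 and 0.244 RPKM in topped leaves, against 0.677, 0.650, 2.03 and 1.98 RPKM in untopped leaves, and fell in PMT3 and TN90. The Never ripe-2 gene NITAB049051 stood at 2.03, 3.73, 5.09 and 1.97 RPKM in topped leaves, against 2.90, 3.12, 4.42 and 5.13 RPKM in untopped leaves and fell in TN90. Both NAC19 matches were the other members that fell there. The ACC oxidase gene NITAB058665 stood at 9.69, 16.6, 8.23 and 16.3 RPKM in topped leaves, against 10.7, 12.6, 9.40 and 9.07 RPKM in untopped leaves, with no change of 2-fold.

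The third comparison set the lines against TN90. In topped roots 0 members differed by 2-fold in PMT1 (4.14% of the table was higher and 6.84% lower) and in PMT2 (5.01% and 6.80%). In PMT3 1 was higher (4.92% of the table) and 1 lower (17.3%). The higher one was NITAB018170 (ERF094), at 1.95 RPKM in PMT3 against 0.758 RPKM in TN90. The lower one was the ACC oxidase gene NITAB058665, at 2.20 RPKM in PMT3 against 6.90 RPKM in TN90.

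Untopped roots differed more, and mostly in PMT2. There 7 members were higher than in TN90 (38.3% of the table) and 8 lower (8.63%). In PMT1 1 was higher (8.77%) and 1 lower (3.08%), and in PMT3 1 was higher (5.54%) and 2 lower (8.63%). The median log2 fold of the 39 members in PMT2 was -0.46, beside 0.72 for the table, so they lay on the other side of the table. Relative to the column medians 3 members were higher in PMT2 (20.9% of the table) and 17 lower (22.6%). The untopped PMT2 root column stands apart from that of the other lines over the whole table, PMT2 has most of the plants with opposite treatment labels, and the part of either in these counts was not tested.

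The 8 members lower in untopped PMT2 roots were receptors and ERFs. The EIN4 gene NITAB018116 stood at 0.804 RPKM in PMT2 against 2.51 RPKM in TN90, and NITAB076230 at 0.560 RPKM against 2.12 RPKM in TN90. The ERF094 gene NITAB018170 stood at 1.31 RPKM in PMT2 against 7.57 RPKM in TN90, 5.43-fold lower. The other ERF094 matches, NITAB076191 and NITAB035074, and NITAB010101, NITAB016406 and NITAB068640 made up the rest.

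Of the 7 members higher in untopped PMT2 roots, AOS 3 (NITAB098766) was the only one from the 13 counted as jasmonate genes, at 6.16 RPKM in PMT2 against 1.68 RPKM in TN90. The ACC oxidase gene NITAB058665 stood at 5.02 RPKM against 1.94 RPKM in TN90. The ERF2 genes NITAB077921 and NITAB035781, NITAB040189, NITAB055710 and NITAB067119 were the others. All 8 TIFY genes lay within 2-fold of TN90 in untopped roots of each line. Relative to the column medians 2 of them, NITAB044935 and NITAB083826, were lower than TN90 in PMT2, and 0 in PMT1 and PMT3. In all 3 lines 1 member was higher than TN90, NITAB040189 (2.60% of the table), at 1.31, 1.22 and 1.89 RPKM in PMT1, PMT2 and PMT3 against 0.220 RPKM in TN90.

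**Figure D5:**
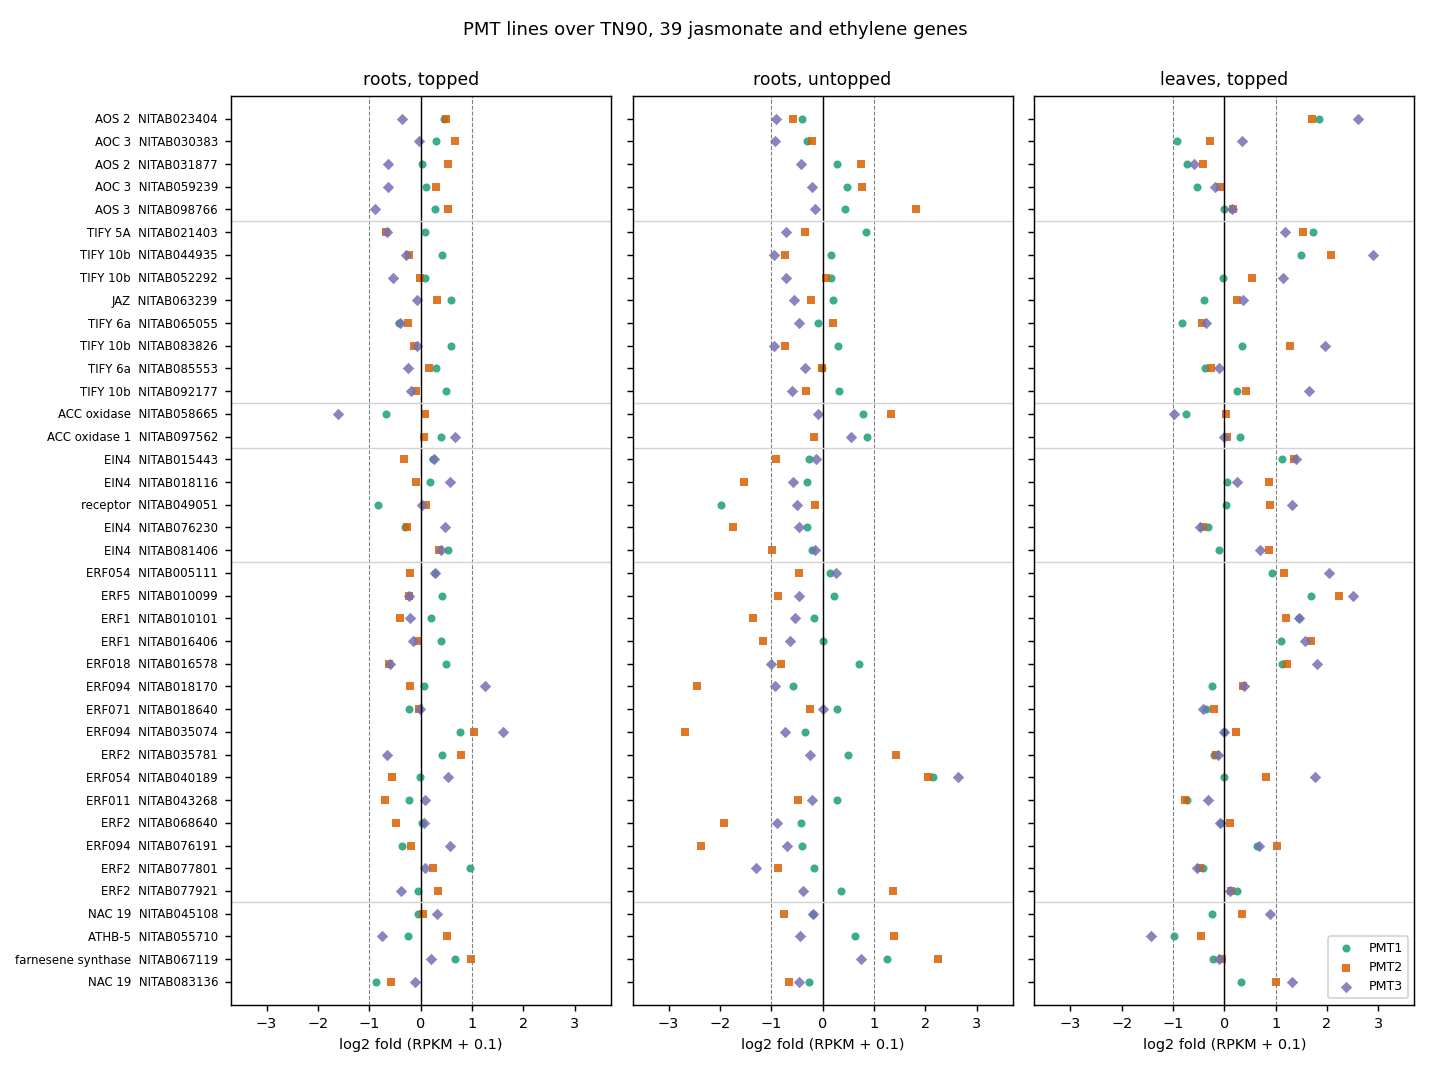
Log2 fold of RPKM + 0.1, PMT line over TN90, for each of the 39 genes in topped roots (left), untopped roots (middle) and topped leaves (right), with 1 symbol per line and dashed lines at 2-fold. In topped roots nearly all symbols lie within the dashed lines, in untopped roots the PMT2 squares spread furthest, and in topped leaves the ERF5, ERF1 and TIFY 10b symbols lie mostly to the right. The lines share the TN90 value of a panel, and members under 1 RPKM in both groups are drawn but were not counted.

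In topped leaves 9 members were higher than TN90 in PMT3 (11.8% of the table), 2 in PMT2 (6.70%) and 2 in PMT1 (6.65%), and 0 were lower (6.41%, 3.57% and 5.06% of the table). NITAB010099 (ERF 5) was among them in every line, at 1.86, 2.75 and 3.35 RPKM in PMT1, PMT2 and PMT3 against 0.506 RPKM in TN90. Where 1 RPKM in any leaf group was enough, 6 members stood at least 2-fold above TN90 in all 3 lines, as did 4.92% of the table. Besides NITAB010099 these were NITAB010101, NITAB016406, NITAB015443, NITAB023404 and NITAB044935. In topped leaves NITAB016406 (0.119 to 0.601 RPKM) and NITAB015443 (0.244 to 0.808 RPKM) stayed below 1 RPKM and passed only through untopped leaves. NITAB023404 and NITAB044935 reached 1 RPKM only in topped PMT3 leaves, at 1.01 and 1.30 RPKM. The 3 ratios share the topped leaf column of TN90, for which the authors list 3 libraries and the labels 4 samples. It could not be recomputed without one of them.

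In untopped leaves 0 members were higher in PMT1 (1.98% of the table) and PMT2 (4.24%) and 1 in PMT3 (1.35%). 1 member was lower in PMT1 (4.43%), 6 in PMT2 (8.63%) and 0 in PMT3 (3.47%). The 6 in PMT2 were ERF 5, ERF 1 (NITAB010101), the EIN4 gene NITAB015443, TIFY 10b (NITAB092177) and both NAC19 matches. NITAB015443 stood at 0.677 RPKM in PMT1, 0.650 RPKM in PMT2 and 2.03 RPKM in PMT3, against 1.98 RPKM in TN90. ERF 5 thus stood below TN90 in untopped PMT2 leaves, at 1.57 RPKM in PMT2 against 4.78 RPKM in TN90, and above it in topped ones.

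By tissue, the lowest root value exceeded the highest leaf value for 22 members, and for 67.6% of the table, while the reverse held for 1 member (2.27%). Since the table was chosen in roots, this lean is part of its making. The 22 included 13 of the 15 ERFs, 3 of the 5 receptors, 3 of the 13 jasmonate genes, 2 of the 4 members matched by name alone and the ACC oxidase gene NITAB097562. The 2 ERFs outside it, NITAB018170 and NITAB040189, were below 1 RPKM in all leaf groups and in some topped root groups. The member higher in leaves was the ACC oxidase gene NITAB058665, at 1.81 to 7.31 RPKM in roots (median 3.84) and 8.23 to 16.6 RPKM in leaves (median 10.2). Of the genes of jasmonate synthesis and signalling 11 of 13 reached 1 RPKM in a leaf group, and of the ERFs 4 of 15, where 51.1% of the table did.

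Other genes of these pathways were counted by name. All 3 genes matched to cytochrome P450 94C1, an enzyme that oxidises and so inactivates the jasmonate conjugate in Arabidopsis, rose in roots of every genotype, as 7.95% of the table did. NITAB012119 among them stood at 7.76, 9.84, 4.62 and 7.33 RPKM in topped roots, against 1.89, 4.17, 0.843 and 1.57 RPKM in untopped roots. Of 5 phospholipase A1 genes, an enzyme class that can release the fatty acid jasmonate is made from, 2 rose in roots of all 4 genotypes and 0 fell. Of 7 polyphenol oxidase genes, defence genes that jasmonate induces in Solanaceae, 3 rose in roots of all 4, beside the same 7.95%. Polyphenol oxidase F (NITAB001898) stood at 20.8, 33.6, 17.5 and 12.4 RPKM in topped roots, against 2.71, 5.01, 2.83 and 4.74 RPKM in untopped roots. Of these 15 genes 0 fell in roots of any genotype. The shares of the table that fell were also small, at 3.81% (PMT1), 2.89% (PMT2), 5.83% (PMT3) and 6.07% (TN90). Of 8 proteinase inhibitor genes, also jasmonate targets, 2 rose in roots (7.95% of the table) and 3 in leaves (0.578%) of all 4 genotypes.

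On the ethylene side, 5 S-adenosylmethionine synthase genes, which supply the precursor of ethylene and of many other products, were counted, of which 4 rose in TN90 roots (45.6% of the table), 3 in PMT1 (21.2%), 1 in PMT3 (26.5%) and 0 in PMT2 (12.2%). Of 4 genes for EIN3-binding F-box proteins, which degrade the ethylene transcription factor EIN3, 1 fell in TN90 roots (6.07% of the table) and 1 in PMT1 roots (3.81%). NITAB082230, the gene in both cases, stood at 4.04, 3.89, 4.20 and 4.19 RPKM in topped roots, against 9.09, 4.71, 7.09 and 8.89 RPKM in untopped roots. In leaves 4 of the 4 fell in PMT3 (1.69% of the table) and 3 in TN90 (12.4%), and 0 in PMT1 (4.05%) and PMT2 (1.64%). Of 7 other genes named ethylene-responsive, 3 rose in TN90 roots, 2 in PMT1, 1 in PMT3 and 0 in PMT2, near the shares of the table just given in TN90 and PMT1 and below them in PMT3 and PMT2.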

How the data were processed

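RNA of leaves and roots was sequenced as stranded total RNA (paired reads). The authors mapped reads to an updated tobacco genome in CLC Genomics Workbench 11.0.1 (tool RNA-Seq Analysis 2.16), with similarity and length fraction at 0.95 and up to 10 hits per read. They deposited RPKM as a mean per group for 2075 genes, chosen by an exact test for differential expression among root groups (p of at most 0.05, fold of at least 2). Read counts of the libraries and the percent of reads in genes are as the authors deposited them. Annotation and comparison results in other columns were not used.

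Here folds are differences of log2(RPKM + 0.1), called at 2-fold where one of both groups reached 1 RPKM. A count over several genotypes or lines asked for 1 RPKM in any group of the tissue. With 1 mean per group no test was run. Members given in full in roots are all synthesis, TIFY and receptor genes and ERFs of at least 5 RPKM in a root group. In leaves only some of them are given. Members and lists were chosen with earlier results of these data known. Of the gene identifiers 0 were found in the reference gene table, so no sequence or position is given. Alternatives were another pseudocount, other minimums and a higher fold, centring of columns and leaving out PMT2 or PMT3. Python 3.11.15, numpy 2.4.6, pandas 2.3.3 and matplotlib 3.10.9 were used.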

Additional observations from a re-analysis of the deposited data

How the results depend on the processing

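No paired analysis was possible because the values are 1 mean per group. What depth limits cannot be set per gene, since the reads behind a value are known only through library totals. Of the 39 members 19 stayed under 1 RPKM in all leaf groups and 0 in all root groups. Counts are given below for topping as risen or fallen in PMT1, PMT2, PMT3 and TN90, in that order, and for PMT1, PMT2 and PMT3 over TN90. Counts that shifted less are mostly left out, which does not mean that they stayed the same. With columns centred on the table median, 5, 9, 10 and 4 members rose and 10, 2, 5 and 11 fell in roots, 0 rose and 1 fell in roots of all 4 genotypes, 1 instead of 2 fell in PMT3 leaves and 1 instead of 2 differed in topped PMT2 leaves. Centring also puts 4 instead of 22 members higher in all root groups and 10 instead of 1 higher in all leaf groups, since the table median itself is much higher in roots. At a fold of at least 3, 4, 4, 8 and 5 rose in roots, 0 in all 4 genotypes, and in leaves 0 rose in PMT1, 1 in PMT2, 2 in TN90 and 0 in all 4, while 0 fell in PMT3 leaves and roots. Against TN90 this left 8 members in untopped PMT2 roots, 1 in untopped and 1 in topped PMT3 roots, 0, 1 and 0 in untopped leaves and 1, 1 and 5 in topped leaves. With a minimum of 5 RPKM, 9, 6, 7 and 9 rose and 1, 0, 0 and 1 fell in roots, 3 rose in PMT2, 4 in PMT3 and 3 in TN90 leaves, and 0 fell in PMT3 and 2 in TN90 leaves. Against TN90, 1, 5 and 0 differed in untopped roots, 1 in topped PMT3 roots, 0, 1 and 0 in untopped leaves and 0, 0 and 2 in topped leaves, and 10 were higher in all root groups. With no minimum, 11 rose in PMT2 leaves, 4 fell in PMT3 and 14 in TN90 leaves, and against TN90 1 differed in topped PMT2 roots, 3, 11 and 3 in untopped leaves and 8, 12 and 16 in topped leaves. With a pseudocount of 1 RPKM, 10, 9, 11 and 11 rose in roots, and 4 in roots of all 4 genotypes. In leaves 3 rose in PMT2, 5 in PMT3 and 3 in TN90. With this pseudocount 2, 0, 0 and 5 fell in roots and 0 in PMT3 leaves. Against TN90, 1, 10 and 1 members differed in untopped roots, and 1 in topped PMT3 roots. In leaves 0, 1 and 0 differed in untopped and 0, 1 and 5 in topped plants. Without PMT2, 11 members rose in roots of every genotype left, and without PMT3 9 did. The cause of these shifts was not tested.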
